A study of Homo sapiens with 3 samples.

Results

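Mitochondrial ribosomal protein genes were described in RNA-seq libraries of HaCaT cells, an immortalised human keratinocyte line. The members are the protein-coding genes of the count table whose symbol starts with MRPL or MRPS followed by a number, and 78 of the 58735 genes in the table met this rule. All cultures were wild type and were sampled at 24 h. The control library came from cells exposed to none of the particles, the CB library from cells given carbon black at 25 µg/mL, and the S1650b library from cells given S1650b, a particulate sample, at 50 µg/mL, with both particles in DMEM without serum. Each of the 3 groups holds 1 library, so no difference below has a replicate check, no test between groups was possible, and effects of the particles cannot be told apart from differences between single cultures. The doses of the particles also differ, so their values are set side by side.

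The mitochondrial ribosome is built in the matrix of the mitochondrion and translates the few messenger RNAs of the mitochondrial genome, which encode core subunits of the respiratory chain and of ATP synthase. Its ribosomal RNAs are transcribed from mitochondrial DNA, whereas its proteins are encoded in the nucleus, made in the cytosol and imported. Some of these proteins belong to families shared with bacterial ribosomes, and others were added during the evolution of mitochondria. The symbols do not always give the subunit, since the proteins of MRPS18A and MRPS30 sit in the large subunit, and MRPS36 encodes a subunit of the oxoglutarate dehydrogenase complex and not a ribosomal protein. The members were therefore counted as 51 large-subunit genes, 26 small-subunit genes and MRPS36.

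The members lie on 21 chromosomes, with 8 each on chromosomes 1, 2 and 17, so they form no single cluster in the genome. MRPL46 (chr15:88459476-88467419, minus strand, GRCh38) and MRPS11 (chr15:88467453-88480773, plus strand) start head to head, 34 bases apart, and encode a large-subunit and a small-subunit protein.

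Promoter sequences were found for 69 of the 78 members in a RefSeq table for GRCh38.p14 that holds 250 bases before and 50 bases after each start. The core of the site bound by ETS-family factors such as GABP, CCGGAAG searched on both strands, was present in 29 of the 69 member promoters (42%), against 10.7% of all 27305 promoters of that length and 14.4% of the 15301 protein-coding ones. The YY1 motif AAGATGGC was present in 20 (29%), against 3.03% of all promoters and 3.97% of the protein-coding ones. The NRF1 motif, GCGC and GCGC with any 2 bases between them, was present in 9 (13%, against 8.78% of all promoters and 12.1% of the protein-coding ones) and the GC box GGGCGG in 42 (60.9%, against 44.6% and 59.3%), close to the protein-coding shares. The letters TATAAA were present in 2 (2.9%, against 12% and 9.59%). All motifs were searched on both strands, and matches to different motifs may overlap. A match is a description of the letters and not evidence of binding.

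The following stretches show where the ETS core lies in 3 members. They are the 60 bases before the start, 5′ to 3′ on the gene's strand, with the ETS core in capitals, and were printed for each member that had the core there and whose stretch touched no annotated gene. They come from RefSeq, build GRCh38.p14, at chr6:43687792-43687851 (minus strand) for MRPS18A, chr17:75012610-75012669 (plus strand) for MRPL58 and chr13:40771191-40771250 (minus strand) for MRPS31.
MRPS18A: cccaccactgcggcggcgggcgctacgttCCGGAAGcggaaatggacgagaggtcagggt
MRPL58: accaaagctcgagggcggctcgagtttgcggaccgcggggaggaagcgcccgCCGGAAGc
MRPS31: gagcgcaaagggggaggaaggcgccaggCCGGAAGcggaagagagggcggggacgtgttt
The S1650b level relative to the control was 0.564 for MRPS18A, 0.641 for MRPL58 and 1.19 for MRPS31. After removal of the length and GC trends described below it was 0.849, 0.870 and 1.10. A relation between the core and these levels was not tested.

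The libraries hold 20658247 (control), 20946139 (CB) and 20417744 (S1650b) counts. A gene was taken as measured when it reached 1 CPM (a count scaled to library size with TMM factors) in at least 1 library, which 14619 genes and 77 of the 78 members did. The keratinocyte label was checked with KRT5, KRT14, TP63, ITGB4 and COL17A1, all detected in each library, whose summed level was 13277.6 CPM in the control, 11774.0 with CB and 5262.9 with S1650b. Of 5 fibroblast markers, 4 were detected in the control and all 5 in the others, with summed levels of 93.2, 30.2 and 12.9 CPM, in the control mostly from COL3A1 and DCN. The 5 endothelial markers summed to 54.8, 28.1 and 44.1 CPM, nearly all of it CDH5, and the 5 melanocyte markers to 9.75, 8.21 and 9.49 CPM with TYR and DCT at 0. The lower keratinocyte sum in S1650b came mainly from KRT5 and KRT14, while TP63 was at 143.6, 162.3 and 178.2 CPM. The fibroblast sum was lower in both particle libraries. The part of these differences in the results below was not tested. In bulk RNA, fewer cells of a type and less RNA per cell cannot be told apart.

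In all, mitochondrial ribosomal protein genes took 0.542% of the control counts (111960 counts, exact 95% interval 0.539 to 0.545%), 0.634% of the CB counts (132847, 0.631 to 0.638%) and 0.411% of the S1650b counts (83892, 0.408 to 0.414%). Their share was highest in CB and lowest in S1650b. Of the 77 measured members, 64 were ordered CB, control, S1650b from high to low, 8 were ordered control, CB, S1650b, 4 were ordered CB, S1650b, control, and MRPS31 alone was highest in S1650b. These orders take no account of the counting error. All intervals here cover counting error only, since each group holds 1 library. Without molecular identifiers, PCR copies of a molecule cannot be recognised. Any such copies would make the true counting error larger than the intervals show.

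Per length, the median member stood at 25.3 FPKM (the deposited values, scaled to exon length and library size) in the control, 31.8 with CB and 16.7 with S1650b. The median over all measured genes was 4.07, 4.19 and 4.34 FPKM. Proteins of the cytoplasmic ribosome were far more abundant, with medians of 369.5, 358.4 and 237.7 FPKM over 84 genes. Large-subunit genes had median levels of 26.8, 32.9 and 17.7 FPKM and small-subunit genes 15.5, 18.3 and 15.2 FPKM, with wide overlap between the subunits.

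The levels of single members differed widely, and in the control the measured ones ran from 0.551 to 170.1 FPKM. The highest was MRPS34, a small-subunit gene, with control, CB and S1650b levels of 170.1, 221.2 and 95.4 FPKM. Next in the control came the large-subunit genes MRPL41 (127.6, 160.2 and 104.1 FPKM), MRPL14 (116.2, 149.0 and 67.2 FPKM), MRPL15 (110.3, 142.9 and 63.5 FPKM) and MRPL51 (98.0, 112.1 and 54.7 FPKM). In each of these 5 genes CB was the highest library and S1650b the lowest.

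Some of the members at the lowest levels share exon bases with other genes, and whether this lowered their counts was not tested. Reads that fell on exon bases shared by several genes appear to have been dropped on both strands, since 1857 of 1894 genes with every exon base shared have 0 counts, as do all 710 that share every base with the opposite strand only. MRPS24, which shares 23.2% of its exon bases with a read-through gene, had 3, 9 and 16 counts in the control, CB and S1650b. It was the only unmeasured member and is given no fold. MRPL38 (0.551, 0.751 and 0.666 FPKM), which shares 41.1% of its exon bases, and MRPL53 (1.28, 1.58 and 1.39 FPKM), which shares 45.2%, also sit at the bottom, with at most 55 counts in any library. MRPL46 (2.93, 2.83 and 1.46 FPKM) and MRPL42 (2.98, 3.70 and 2.96 FPKM) followed, and their exons overlap other genes by 11.3% and 1.72%. In all, 14 members share over 20% of their exon bases, so their levels are uncertain. MRPL12, at 32.5, 41.2 and 13.8 FPKM, shares the most (68.2%), and MRPS18A, at 30.5, 32.4 and 17.1 FPKM, shares 47.0%. Members with a large share were thus not all low. The 79 pseudogenes named after 36 members held few counts, and MRPS31 had the largest share of its summed counts in its copies (9.02%). How reads that match both a gene and its copy were counted is not known. Few counts in the copies therefore cannot show whether members lost reads to them.

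**Figure D1:**
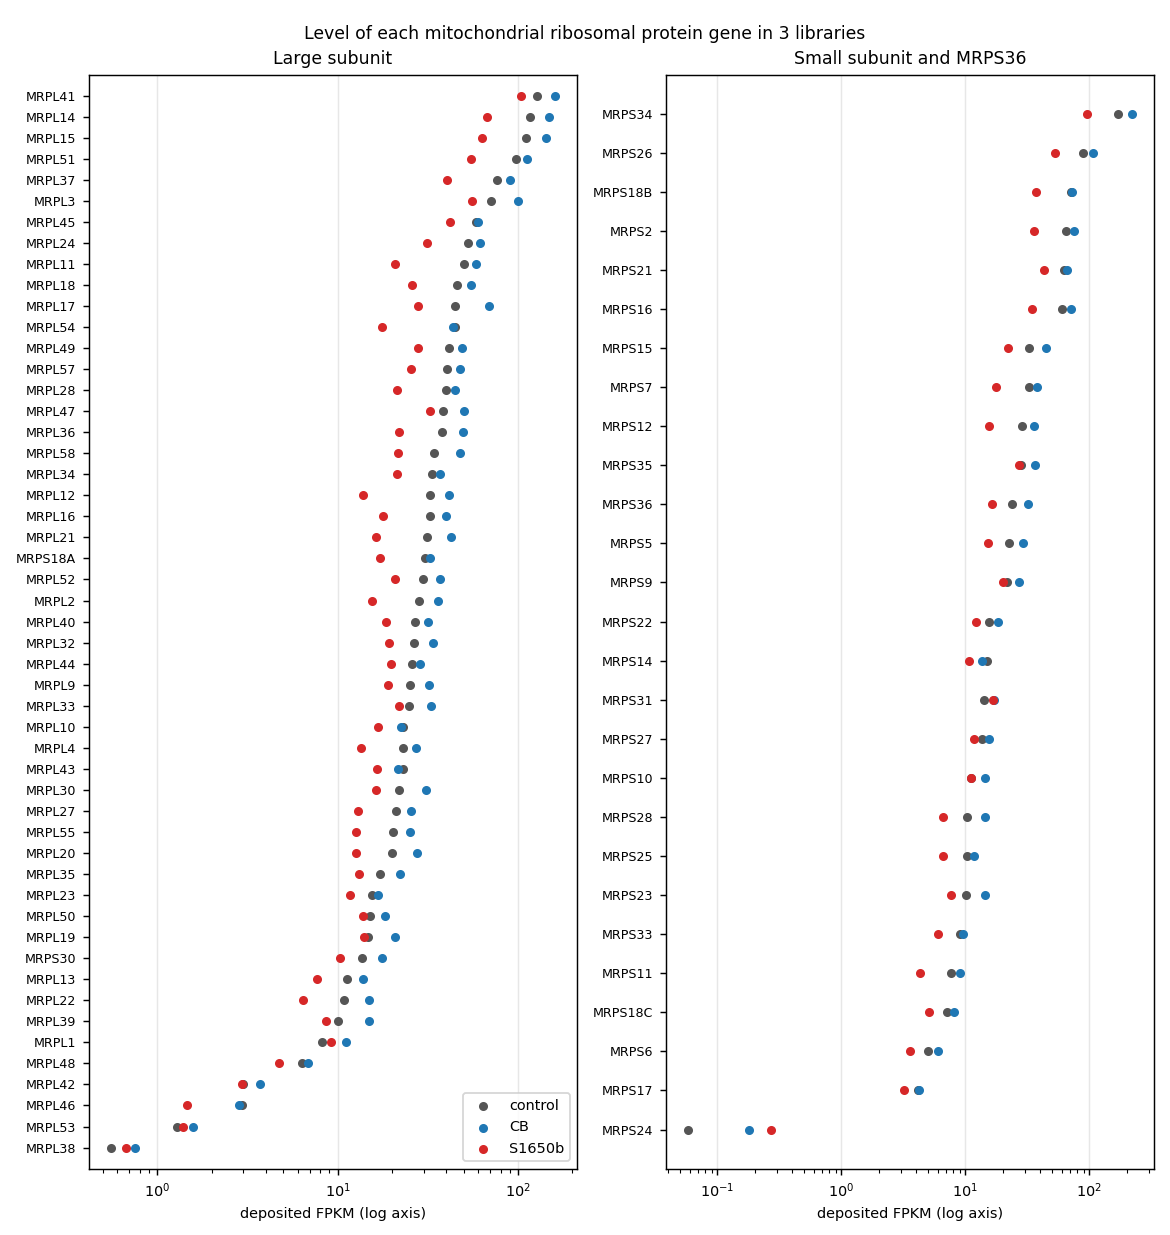
Deposited FPKM (horizontal log axis) of each mitochondrial ribosomal protein gene in the control, CB and S1650b libraries, 1 point per library, for large-subunit and small-subunit genes, each panel ordered by level. S1650b points lie left of the others for most genes, and levels within each subunit spread from below 5 to above 100 FPKM.

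With carbon black, most mitochondrial ribosomal protein genes were slightly higher than in the control. The summed level was 1.16 times the control (95% interval 1.15 to 1.17), and 69 of 77 members lay above 1 and 8 below. The median log2 fold was 0.21, against -0.00 over all measured genes, and single members ranged from -0.21 to 0.55. Members were called higher or lower at a fold of at least 1.5 with the 95% counting interval on that side of 1. By this rule 0 of 77 members were higher, where 4.71% of all genes were, and 0 were lower, where 10.7% of all genes were. With the interval off 1 and a level at least 25% above the control, 15 members were higher (13.0% of all genes), and at least 20% below it 0 were lower (17.5%). With the interval off 1 at any fold, 59 were higher (26.7% of all genes) and 3 lower (26.7%). The shift was thus small and shared by many members. Intervals narrow as counts rise, so this rule passes more readily at the higher levels of the members. With the filter at 5 CPM, 59 of 75 members and 3645 of 11325 genes were higher, and 3 members and 3158 genes lower.

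MRPL17, a large-subunit protein of a bacterial family, was highest, at 102.7 CPM in the control and 150.1 CPM in CB, a fold of 1.46 (1.38 to 1.55). It was lowest in S1650b, at 64.3 CPM. The following members outside the naming rule were chosen after their values were seen. MRPL39 was at 12.2 and 17.2 CPM (1.41, 1.19 to 1.67) and MRPS23, a small-subunit protein, at 65.1 and 88.8 CPM (1.37, 1.27 to 1.47). MRPL3, a large-subunit protein of a bacterial family, was at 194.1 and 260.5 CPM (1.34, 1.29 to 1.40). The 3 members below the control with the interval off 1 were MRPS14 (39.3 to 34.0 CPM, 0.866, 0.780 to 0.961), MRPL43 (82.3 to 73.6 CPM, 0.894, 0.833 to 0.960) and MRPL10 (64.3 to 59.1 CPM, 0.920, 0.849 to 0.996). Their distance from 1 was smaller than that of the members at the upper end.

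By part of the ribosome, the median log2 fold in CB was 0.24 over 51 large-subunit genes and 0.18 over 25 small-subunit genes. It was 0.28 over the 30 large-subunit genes of bacterial families and 0.18 over the 21 found only in mitochondria. MRPL58, which descends from a peptide release factor and became a large-subunit protein, was at 37.9 CPM in the control and 50.6 CPM in CB, a fold of 1.33 (1.21 to 1.47). MRPS36, the non-ribosomal member, was at 36.5 and 46.6 CPM, a fold of 1.27 (1.15 to 1.41), which lies within the range of the ribosomal genes.

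**Figure D2:**
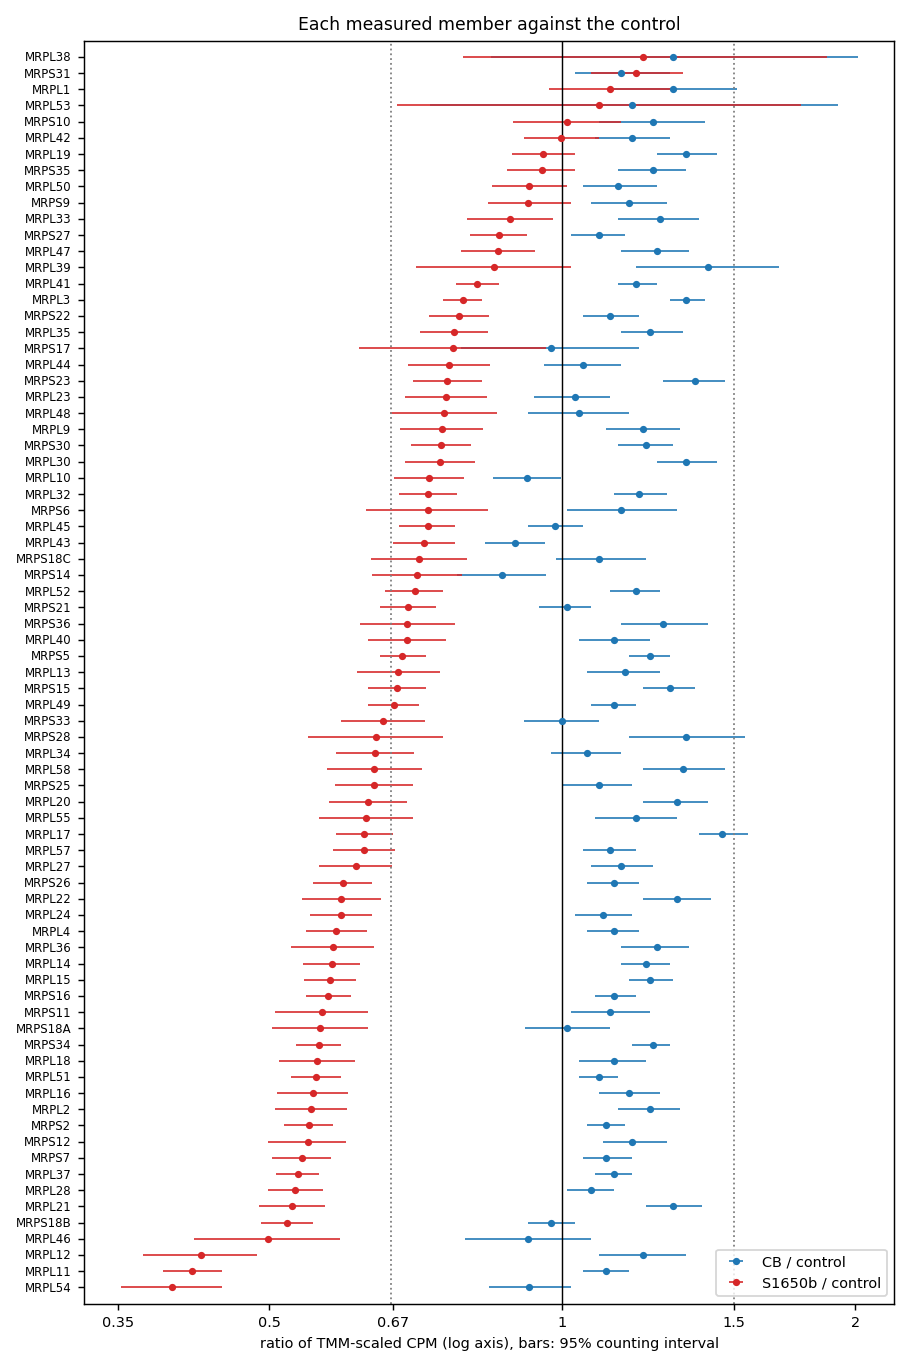
Ratio of TMM-scaled CPM to the control (horizontal log axis) for each of the 77 measured members, with CB and S1650b in separate colours and bars for the 95% counting interval. CB points gather between 0.866 and 1.46, while S1650b points spread from 0.397 to 1.21. Both ratios have the same control library as denominator.

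With S1650b, mitochondrial ribosomal protein genes were mostly lower than in the control. The summed level was 0.660 of the control (0.654 to 0.666), or 1.52-fold lower, and 72 of 77 members lay below 1. The median log2 fold was -0.56, against -0.05 over all measured genes, with a range from -1.33 to 0.27. By the call rule 36 of 77 members were lower, where 19.6% of all genes were, and 0 were higher, where 21.9% of all genes were. At a fold of 2, 4 members were lower (7.97% of all genes), and at least 20% below the control 62 were (31.4%). With the interval off 1 at any fold, 66 were lower (39.5%) and 1 higher (33.8%), a rule that depends on counts as above. With the filter at 5 CPM, 66 of 75 members and 5224 of 11325 genes were lower, and 1 member and 4096 genes higher.

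The 4 members at least 2-fold lower were all of the large subunit, which has 51 measured genes against 25 in the small subunit. Of all genes, 7.97% were lower at this fold. The median log2 folds of the large and small subunits were similar (-0.57 and -0.55), and a difference between the subunits was not tested. MRPL54 was at 45.2 CPM in the control, 41.8 with CB and 18.0 with S1650b, 2.52-fold lower than the control (2.24 to 2.84). MRPL11, which lies at the base of the stalk that contacts translation factors, was at 128.1, 142.1 and 53.4 CPM, 2.40-fold lower (2.24 to 2.57). MRPL12, a stalk protein that has also been described with the mitochondrial RNA polymerase, was at 33.6, 40.6 and 14.3 CPM, 2.35-fold lower (2.06 to 2.70), with its level uncertain from shared exons. In these 3 genes the control and CB values lay closer to each other than to the S1650b value, which was below both. MRPL46 was at 19.0, 17.5 and 9.45 CPM, 2.01-fold lower (1.69 to 2.39), and its head-to-head neighbour MRPS11, chosen after its value was seen, was at 43.2, 48.6 and 24.4 CPM, 1.77-fold lower (1.59 to 1.97).

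Among the small-subunit genes, MRPS18B was at 134.9 CPM in the control, 131.4 with CB and 70.4 with S1650b, 1.92-fold lower than the control (1.80 to 2.04). MRPS7, a bacterial-family protein of the head of the subunit, was at 108.6, 120.6 and 58.6 CPM, 1.85-fold lower (1.73 to 1.99). MRPS2 was at 161.0, 178.2 and 88.3 CPM, 1.82-fold lower (1.72 to 1.93). MRPS34, the gene with the highest level per length, was at 188.0, 232.5 and 105.6 CPM, 1.78-fold lower (1.69 to 1.88). Once the length and GC trends were removed, none of these 4 was called, with MRPS18B at 0.704, MRPS7 at 0.672, MRPS2 at 0.830 and MRPS34 at 0.853.

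Other large-subunit genes of this size were MRPL21 (88.8, 115.7 and 46.8 CPM, 1.90-fold lower, 1.75 to 2.05), MRPL28 (123.0, 131.1 and 65.4 CPM, 1.88-fold lower, 1.76 to 2.01) and MRPL37 (195.4, 221.2 and 104.6 CPM, 1.87-fold lower, 1.77 to 1.97). The abundant MRPL41 stood out from them with 162.3, 193.7 and 132.6 CPM, 1.22-fold lower than the control (1.16 to 1.29), short of the call. After removal of the trends MRPL21 (0.786), MRPL28 (0.781) and MRPL37 (0.742) were not called.

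MRPS31, chosen after its value was seen, was the 1 member above the control with its interval off 1, with 591, 697 and 800 counts in the control, CB and S1650b and a fold of 1.19 (1.07 to 1.33). Reads of its 4 pseudogenes were 56, 53 and 98 counts in the control, CB and S1650b. MRPL42 was level with the control, at 49.2, 58.1 and 49.0 CPM and a fold of 0.997 (0.914 to 1.09), but at 0.502 (0.460 to 0.548) and called lower once the length and GC trends of all genes, described below, were removed. The thinly counted MRPL38 (2.03, 2.64 and 2.46 CPM, 1.21, 0.791 to 1.87) and MRPL53 (1.73, 2.04 and 1.88 CPM, 1.09, 0.676 to 1.76) had intervals that span both directions.

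The paralogs MRPS18A, MRPS18B and MRPS18C encode related proteins that occupy different places in the ribosome. MRPS18A, which lies in the large subunit, was at 39.4 CPM in the control, 39.8 with CB and 22.2 with S1650b, 1.77-fold lower in S1650b than in the control (1.58 to 1.99). MRPS18C was at 34.7, 38.0 and 24.8 CPM, 0.713 of the control (0.636 to 0.799), short of the call, while MRPS18B was 1.92-fold lower as given above. In CB the 3 paralogs were at 1.01, 0.974 and 1.09 of the control for A, B and C, each with an interval that includes 1. With the length and GC trends removed the order was another, with MRPS18C at 0.538 and called lower, and MRPS18A (0.849) and MRPS18B (0.704) not called. MRPS18A and MRPS18C share 47.0 and 40.2% of their exon bases with other genes.

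MRPS30, which is placed in the large subunit despite its symbol, was at 85.9, 104.4 and 64.5 CPM, 1.33-fold lower in S1650b than in the control (1.24 to 1.43). MRPL58 was at 24.3 CPM in S1650b, 1.56-fold lower (1.39 to 1.75), and MRPS36 at 25.3 CPM, 1.44-fold lower (1.29 to 1.61). The non-ribosomal MRPS36 was again within the range of the ribosomal members. After removal of the trends MRPS30 (0.510) and MRPS36 (0.618) were called lower and MRPL58 (0.870) was not.

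Both subunits were lower in S1650b to a similar degree, with a median log2 fold of -0.57 and 25 of 51 large-subunit genes called lower, and a median of -0.55 and 11 of 25 small-subunit genes called lower. Over 46 genes of bacterial families the median was -0.65 with 25 called lower, and over 30 genes found only in mitochondria it was -0.47 with 11 called lower. Leaving out the members with over 20% shared exon bases gave a median of -0.56 and 30 of 64 called lower. Of the members with a RefSeq promoter, the ETS core was present in 13 of 32 called lower and in 16 of 36 others, and the YY1 motif in 9 of 32 and 10 of 36.

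The S1650b folds moved with base composition and length across all genes, and most members lay below these trends. With exon length the log2 fold had a Spearman correlation of 0.313 across 14619 genes and 0.167 across the members. GC content was that of the longest transcript of each gene and was known for 14613 genes. Across these, the log2 fold of S1650b against the control had a Spearman correlation of -0.44 with GC content. Across the 77 members it was -0.515. These points share the same libraries. The median member had 47.7% GC and 2539 exon bases, against 48.6% and 4584 bases over all measured genes, so the median member was the shorter. In the 26 members of lowest GC content (33.5 to 43.8%) the median log2 fold was -0.36 with 4 called lower, in the middle 26 it was -0.64 with 14, and in the 25 of highest GC content (52.3 to 71.9%) it was -0.77 with 18. All genes in the same GC ranges had medians of 0.46, -0.02 and -0.36, and 8.70, 16.9 and 31.1% of them were called lower, a share that also climbs with GC content. By the median, members lay below all genes in each range.

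After the trends with length and GC over all genes were removed, the members' median log2 fold was -0.37 (all genes -0.02), with 24 of 77 called lower where 15.9% of all genes were. Of the 36 members called lower before, 12 were also called lower after removal, so which members pass depends on this step. The 12 are MRPL11, MRPL12, MRPL15, MRPL22, MRPL27, MRPL46, MRPL54, MRPS11, MRPS16, MRPS25, MRPS28 and MRPS33, of which some lie outside the naming rule and are given because the count is small. Among the members, the correlation with GC was 0.475 after removal, and that with exon length was -0.508, against 0.167 before. Longer members and those of lower GC content thus tended to lie lower after removal. The calls and the subunit medians after removal carry this dependence. The subunits differed more then, with a median of -0.35 and 12 of 51 called lower in the large subunit, and a median of -0.57 and 11 of 25 in the small subunit; this difference was not tested. With the length trend alone removed 18 members were called lower (18.2% of all genes), and with the GC trend alone removed 38 (17.3%). With scaling by total counts instead of TMM, 21 of the 36 were still called lower and 0 others were, where 11.9% of all genes were, at a median of -0.36 where the median of all genes was 0.15.

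MRPL46 was the lowest member after removal of both trends, at 0.353 of the control. MRPL22 followed at 0.451, against 0.593 before. MRPL11, MRPL54 and MRPL12 remained lower, at 0.568, 0.606 and 0.643. By contrast MRPL14, of short exon length, moved to 0.845, MRPS34 to 0.853 and MRPL41 to 1.19. MRPL38 was at 1.68 and was the 1 member called higher, on 40, 53 and 55 counts, where 16.2% of all genes were called higher.

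**Figure D3:**
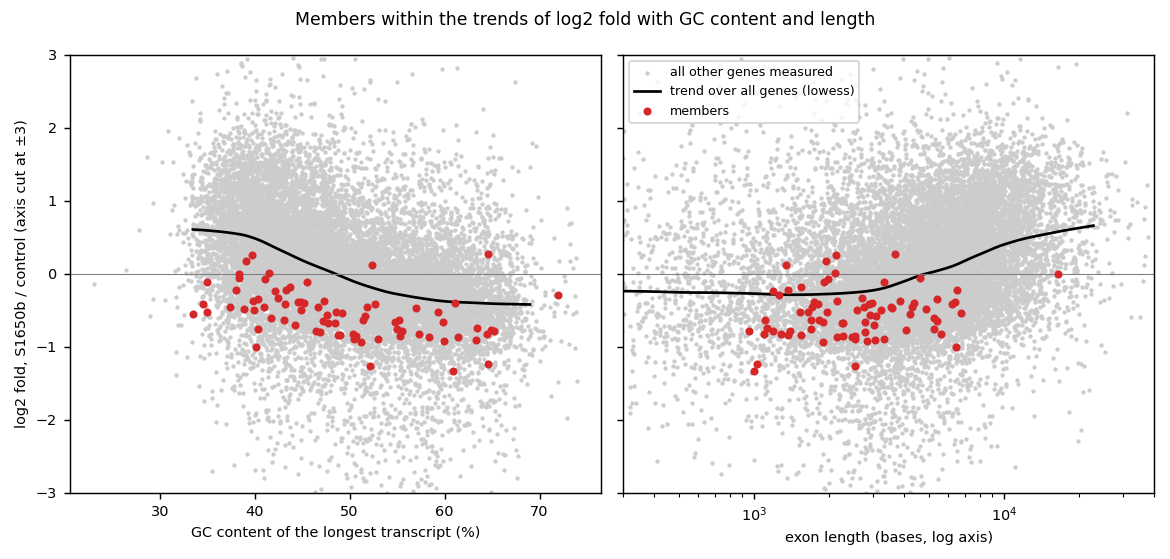
Log2 fold of S1650b against the control (vertical axis, drawn within ±3) by GC content of the longest transcript and by exon length. All other measured genes are in grey, the 77 members in red and the lowess trend over all genes is a line. Most members lie below the line in both panels. The log2 folds of the members fall with GC content, as the line does, so this is not a greater distance below the line.

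S1650b and CB were also compared with each other, at 50 and 25 µg/mL, so that the dose and the particle cannot be told apart. The members' summed level in S1650b was 0.568 of that in CB (0.563 to 0.573), or 1.76-fold lower, and 76 of 77 members lay below 1. The median log2 fold was -0.77, against 0.02 over all genes, and 53 of 77 members were called lower (20.7% of all genes) and 0 higher (26.1%). At a fold of 2, 21 were lower (9.52% of all genes). The lowest ratios were those of MRPL12, at 2.84-fold lower (2.49 to 3.25), MRPL11, at 2.66-fold lower (2.48 to 2.85), and MRPL21, at 2.47-fold lower (2.30 to 2.66). MRPL17 was 2.33-fold lower (2.19 to 2.49), MRPS34 2.20-fold lower (2.09 to 2.31), MRPL2 2.22-fold lower (2.05 to 2.41) and MRPL22 2.21-fold lower (2.03 to 2.42). After removal of both trends 47 members were called lower (19.4% of all genes), 42 of them among the 53.

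Proteins of the mitochondrial ribosome that carry other symbols were split. AURKAIP1 was at 98.9 CPM in the control, 112.2 with CB and 50.0 with S1650b, 0.506 of the control in S1650b (0.469 to 0.545). GADD45GIP1 (75.7, 88.2 and 43.4 CPM, 0.573, 0.528 to 0.622) and CHCHD1 (58.4, 65.1 and 35.2 CPM, 0.603, 0.550 to 0.661) were also called lower. PTCD3, a pentatricopeptide-repeat protein of the small subunit, went the other way, at 39.3, 40.1 and 62.9 CPM, a fold of 1.60 (1.46 to 1.75), but 1.02 after removal of the trends. Of the other three, CHCHD1 (0.645) was still called lower then, and AURKAIP1 (0.758) and GADD45GIP1 (0.881) were not. DAP3, a GTP-binding protein of the small subunit, was at 115.6, 125.4 and 99.2 CPM, 0.859 of the control (0.809 to 0.911). In CB none of the 5 was called.

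The RNA core of the ribosome had another order of libraries than most of its proteins. MT-RNR2, the ribosomal RNA of the large subunit, was at 5322.5 CPM in the control, 4135.3 with CB and 6746.7 with S1650b, a fold of 0.777 (0.770 to 0.784) in CB and 1.27 (1.26 to 1.28) in S1650b. MT-RNR1, that of the small subunit, was at 591.8, 502.9 and 738.6 CPM, a fold of 0.850 (0.827 to 0.873) in CB, and its control level was 0.801 of that in S1650b (0.782 to 0.820). Both were lowest in CB and highest in S1650b, the opposite of the summed protein genes, and neither passed a fold of 1.5 against the control. With the length trend removed both were called higher against the control, and with the GC trend removed their median log2 fold was 0.09. In S1650b against CB, MT-RNR2 was 1.63 and MT-RNR1 1.47. How far library preparation kept ribosomal RNA was not known here, so these levels are uncertain as amounts of ribosomal RNA.

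The 13 proteins encoded by mitochondrial DNA, which this ribosome makes, had a median log2 fold of -0.19 in CB and -0.02 in S1650b against the control. In either library 0 were called, where 4.71% of all genes were higher and 10.7% lower in CB, and 21.9% higher and 19.6% lower in S1650b. The S1650b median was 0.24 with 3 higher when the length trend was removed, -0.31 with 3 lower when the GC trend was removed, and 0.18 with 2 higher with total counts, so it has no settled direction. In S1650b against CB, MT-CYB and MT-ND4 were called higher, at 1.59 and 1.58, from 1994.9 and 2922.5 CPM in CB to 3178.5 and 4631.2 CPM in S1650b.

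Assembly factors help the ribosomal RNAs fold and the proteins join. Their median log2 fold over 26 genes was 0.19 in CB, with MTERF3 called higher (6.46 to 9.95 CPM, 1.54, 1.23 to 1.94), where 4.71% of all genes were. In S1650b the median was -0.44, with 5 called lower, where 19.6% of all genes were, and 2 higher, where 21.9% were. MRM2, a methyltransferase of the large ribosomal RNA, was at 69.1 CPM in the control and 37.5 in S1650b (0.542, 0.497 to 0.591), and DDX28, an RNA helicase, was at 34.5 CPM in the control (0.580 of it in S1650b, 0.513 to 0.654). FASTKD2, an RNA-binding protein of the mitochondrial granules, was at 18.7 and 33.3 CPM (1.78, 1.57 to 2.02), and MTERF3 was at 10.3 CPM in S1650b (1.59, 1.27 to 1.99). After removal of the trends MTERF3 (1.52) was still called, and MRM2 (0.693), DDX28 (0.874) and FASTKD2 (1.23) were not.

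Translation factors had no common direction, with a median of 0.09 over 17 genes in CB and 0 called (4.71% of all genes higher, 10.7% lower). In S1650b the median was 0.16 with 3 called higher (21.9% of all genes) and 3 lower (19.6%). MTIF2, the initiation factor that brings the initiator tRNA, was at 25.4 CPM in the control, 26.9 with CB and 53.3 with S1650b, a fold of 2.10 (1.89 to 2.34). LRPPRC, which stabilises mitochondrial messenger RNAs, was at 75.6, 88.1 and 150.2 CPM (1.99, 1.87 to 2.11), whereas its binding partner SLIRP was at 56.9, 75.6 and 33.8 CPM (0.594, 0.541 to 0.652). GUF1 was at 13.3, 14.8 and 25.0 CPM (1.88, 1.62 to 2.18). TACO1, which activates translation of a cytochrome oxidase subunit, was at 50.6, 59.0 and 32.2 CPM (0.636, 0.577 to 0.700). After removal of the trends MTIF2 stood at 1.93 and SLIRP at 0.538, while LRPPRC, GUF1 (1.48) and TACO1 (0.898) were no longer called. The median of the list was -0.01 then, -0.12 with the length trend alone removed and -0.22 with the GC trend alone removed.

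The 20 mitochondrial aminoacyl-tRNA synthetases, which charge tRNAs with amino acids, had medians of 0.14 in CB and -0.25 in S1650b. In CB the 1 call was MARS2, higher at 22.3 to 38.5 CPM (1.73, 1.54 to 1.95), where 4.71% of all genes were higher. In S1650b 6 were lower (19.6% of all genes) and 0 higher (21.9%). The lower ones were led by EARS2 (58.7 to 30.2 CPM, 0.514, 0.467 to 0.566), AARS2 (31.0 to 16.7 CPM, 0.538, 0.472 to 0.614) and TARS2 (69.2 to 41.9 CPM, 0.606, 0.557 to 0.659). The 13 genes of mitochondrial transcription and RNA processing had medians of 0.24 and 0.02. Their calls were PNPT1 in CB (28.5 to 46.6 CPM, 1.64, 1.47 to 1.82), and in S1650b MTERF2, higher at 4.17 to 7.34 CPM (1.76, 1.34 to 2.32), and HSD17B10, lower at 58.7 to 34.8 CPM (0.593, 0.541 to 0.650). Of these S1650b calls, EARS2 (0.553) and MTERF2 (1.72) held after removal of the trends, and AARS2 (0.708), TARS2 (0.772) and HSD17B10 (0.890) did not. Over the 20 synthetases the median was -0.24 after removal, with 5 called lower where 15.9% of all genes were.

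Among 8 measured transcription factors and coactivators of nuclear genes for mitochondrial proteins, the median log2 fold was 0.18 in CB and -0.43 in S1650b. GABPA, the DNA-binding subunit of the ETS factor GABP, was at 13.3 CPM in the control, 9.0 with CB and 25.1 with S1650b, a fold of 0.679 (0.558 to 0.823) in CB and 1.89 (1.63 to 2.20) in S1650b. It was thus lowest in CB and highest in S1650b, whereas most members were ordered the other way round. After removal of both trends GABPA stood at 1.35 in S1650b and was not called. PPARGC1B, a coactivator, was at 29.8, 31.7 and 19.6 CPM and was called lower in S1650b (0.657, 0.579 to 0.745). That call lies close to the threshold. No gene of the list was called lower with total counts, median-of-ratios or upper-quartile scaling, the deposited FPKM or protein-coding genes only. After removal of both trends 2 genes of the list were called lower, where 15.9% of all genes were. PPRC1, a coactivator of the same family, was at 98.3, 144.5 and 69.6 CPM, and its S1650b level was 0.481 of that in CB.

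Other gene groups of the ribosome and the mitochondrion were also lower in S1650b. The cytoplasmic ribosomal protein genes had a median log2 fold of -0.66 with 54 of 84 called lower, where 19.6% of all genes were. The nuclear respiratory chain genes had a median of -0.76 with 56 of 75 called lower. The 27 measured genes of mitochondrial import had a median of -0.51 with 12 called lower. After removal of the trends 26, 37 and 8 genes of these 3 groups were called lower (15.9% of all genes). With total counts 14, 34 and 7 were (11.9%). In CB the medians were -0.17 for the cytoplasmic ribosomal proteins, 0.06 for the respiratory chain and 0.27 for import. Of the import genes TIMM44 (1.57, 1.47 to 1.67) and GRPEL2 (1.69, 1.46 to 1.95) were called higher in CB, where 4.71% of all genes were. The cytoplasmic ribosomal proteins took 11.8% of the control counts, 10.4% of the CB counts and 8.66% of the S1650b counts, so in CB their share lay below the control while that of their mitochondrial counterparts lay above it.

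**Figure D4:**
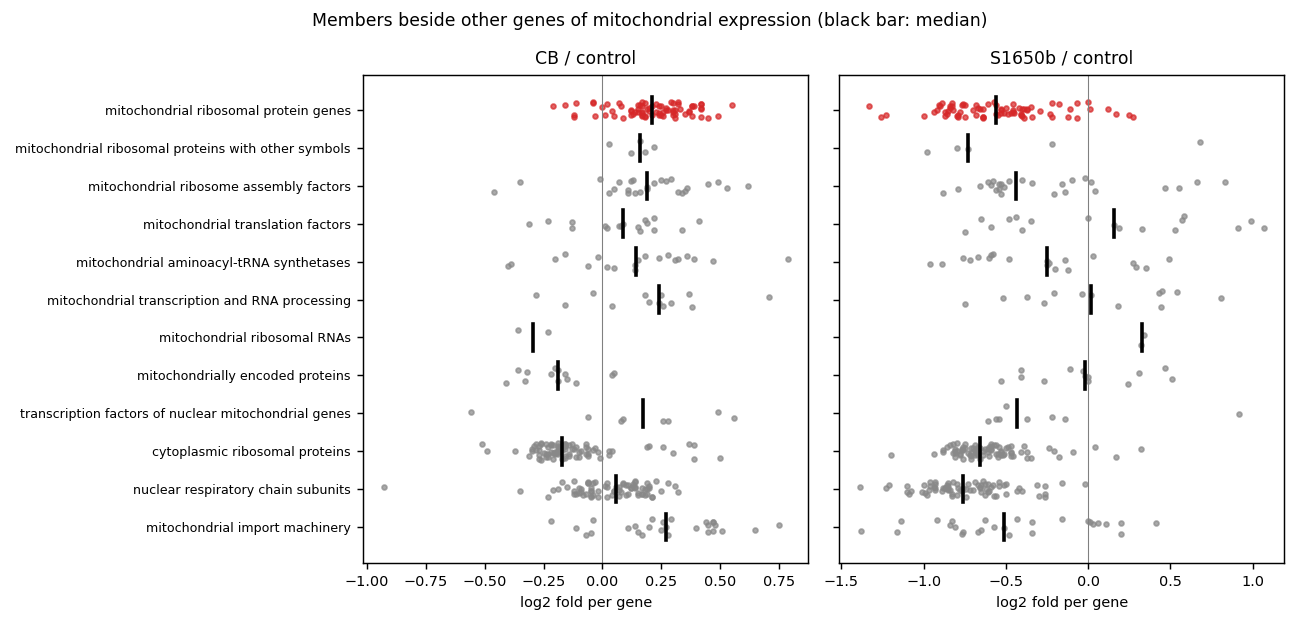
Log2 fold per gene (horizontal axis) against the control for the members and the other gene groups of mitochondrial expression, in CB and in S1650b, with 1 point per measured gene and a black bar at each median. In S1650b the median bars of members, respiratory chain and cytoplasmic ribosomal proteins lie at -0.56, -0.76 and -0.66, while that of the mitochondrial ribosomal RNAs lies at 0.33.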

How the data were processed

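RNA-seq of 3 HaCaT libraries (control, CB and S1650b, 1 each) was used. Trizol was used to extract total RNA and a NEBNext Ultra RNA kit to make the libraries, per the labels' protocols. The authors deposited a table of whole-number counts per Ensembl gene and a table of FPKM values. The submitters' processing notes name CASAVA 1.7 and mouse genome builds, at odds with the human Ensembl identifiers. Neither aligner nor counting tool, strand setting or build used is known from the sources read here. Gene positions, lengths and types came from GENCODE 29 (GRCh38). Its exon lengths equalled those implied by counts and FPKM within 1% in 9252 of 9252 genes with over 200 control counts.

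The members and gene lists were chosen with earlier results of these data known. TMM factors (edgeR 4.0.16 in R 4.3.3) were 0.952 (control), 0.960 (CB) and 1.09 (S1650b). Folds are ratios of scaled CPM with exact 95% conditional binomial (Clopper-Pearson) intervals. The log2 folds have 0.5 counts added per gene. No P value is given. Trends with log10 exon length and GC content were removed by lowess (span 30%). Named genes were, in each comparison, up to 10 members called in each direction, ranked by how far from 1 the nearer interval end lay. Also named were the 5 highest and 5 lowest by control FPKM, the MRPS18 paralogs, MRPS30, MRPL12, MRPL58 and MRPS36. The 5 ribosomal proteins with other symbols were named too, with up to 3 called genes per list, ranked in the same way. Alternatives were other scalings (DESeq2 1.42.0 for median of ratios), the deposited FPKM with 0.1 added, 5 counts added, other filters and folds, protein-coding genes only, and trend removal. The other tools were scipy 1.17.1 and pandas 2.3.3, matplotlib 3.10.9 for plots, statsmodels 0.14.6 for lowess, and numpy 2.4.6, under Python 3.11.15. The scripts were tested on simulated data. A further set of cell type markers is not reported here.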

Additional observations from a re-analysis of the deposited data

How the results depend on the processing

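With 1 library per group, counting error was the only error that could be measured. No paired analysis was possible because each group holds 1 library. In CB against the control, 1 member was called higher with median-of-ratios scaling and 1 with the deposited FPKM, 15 with at least 25% more, and 59 higher and 3 lower at any fold with the interval off 1, a rule added after seeing the data. In S1650b against the control, 1 member was called higher without a filter, with the GC trend removed, with both trends removed and at any fold. The number called lower was 21 with total counts, 18 with the length trend removed, 4 at a fold of 2, 62 with at least 20% less and 66 at any fold. The median log2 fold was -0.36 with total counts, -0.40 with the length trend removed and -0.37 with both removed. In S1650b against CB, 21 were lower at a fold of 2, and the median was -0.58 with total counts, where that of all genes was 0.21. No median of the members changed direction under these alternatives, and the cause of each difference was not tested. Leaving out members with over 20% shared exon bases, also added after seeing the data, was run with TMM scaling and gave 30 lower in S1650b against the control and 45 lower in S1650b against CB. With that exclusion and the GC trend or both trends removed, 0 members were higher in S1650b against the control, since the 1 called with both removed is MRPL38. MRPS24, MRPL38 and MRPL53 have too few counts for a direction.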
